A study of Homo sapiens with 2 samples.

Results

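The Krüppel-like factor (KLF) genes described here are 10 listed members of the family, KLF2, KLF3, KLF4, KLF5, KLF6, KLF9, KLF10, KLF11, KLF13 and KLF16, out of 19974 protein-coding genes on chromosomes 1 to 22 and X. The rule that defines them uses names and positions and no measured value, but they were proposed with earlier results of these data known. For each gene, peaks with a summit within 1000 bp of either end of its RefSeq span were taken first, and then all peaks within 50 kb of that span. The data came from ChIPmentation, a chromatin immunoprecipitation in which Tn5 transposase inserts the sequencing adapters on the bead-bound chromatin. The cells were PANC-1, a long-established line from a human ductal adenocarcinoma of the pancreas. There are 2 samples, PANC-1 cells treated with inflachromene, a compound that binds the chromatin proteins HMGB1 and HMGB2, and PANC-1 cells treated with the solvent DMSO. Both were fixed with EGS and then with formaldehyde. The labels name neither the antibody's target nor the dose or length of treatment, and each treatment has 1 sample. No difference below therefore has a replicate check, no test between treatments was made, and the values compare these libraries rather than the conditions.

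KLF proteins are transcription factors that bind GC boxes and CACCC boxes through zinc fingers at their C-terminal end, as do the related SP proteins. KLF2, KLF4, KLF5 and KLF6 are known mainly as activators, KLF3 as a repressor that works through the corepressor CtBP, and KLF9, KLF10, KLF11, KLF13 and KLF16 as factors that can recruit the SIN3A corepressor. Several of these genes, among them KLF2, KLF4, KLF6 and KLF10, are quickly induced by serum or growth factors. In the pancreas, KLF4 and KLF5 are known for roles in ductal metaplasia and in the growth of ductal adenocarcinoma, and KLF10 and KLF11 as early targets of TGF-beta.

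Chromosomes 1 to 22 and X held 10836 inflachromene peaks, 28.6% fewer than the 15186 DMSO peaks. The number of sequenced fragments, inferred from the caller's lowest background, was 0.964 times as large in inflachromene as in DMSO. Over all 9796 DMSO peaks that overlapped an inflachromene peak, called shared peaks here, the median ratio of inflachromene to DMSO fragments at the summit was 0.833. Of the ductal epithelial markers reported here, KRT8 and KRT18 shared a peak between them, called in both lists, as was that of SOX9, while KRT19 had one in DMSO alone and KRT7, EPCAM and CDH1 had none. The mesenchymal marker VIM had a peak in both lists, ZEB1 in DMSO alone and CDH2 in neither. No peak was called at 6 acinar and islet markers, while 1 of 4 immune markers (SPI1) and 1 of 2 liver markers (APOA1) had one in both lists. Of 4 endothelial and fibroblast markers, 1 (PDGFRB) had a peak only with DMSO, at a position shared with an end of CSF1R. All these marker peaks are those at gene ends, within 1000 bp. Of all protein-coding genes, 52.6% had no such peak, 36.6% had one in both lists and 9.26% only with DMSO. With so few markers, these counts are no measure of cell identity.

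The stretches of sequence below are the 250 bases before RefSeq starts of KLF genes that had a peak summit at or beside them. They are shown because the peaks at these genes lay on them or next to them, and because they hold the boxes that the family's own proteins are known to bind. The starts of KLF11 and KLF16 also had peaks beside them and held GC boxes, and are not shown. Capitals mark the GC box GGGCGG and the CACCC box, each on either strand (so CCGCCC and GGGTG too). Positions are on GRCh38.p14, and each sequence runs 5′ to 3′ on the gene's strand. KLF2 is chr19:16324576-16324825 (plus strand), KLF4 chr9:107489770-107490019 (minus), KLF5 chr13:73058755-73059004 (plus, its downstream start), KLF6 chr10:3785210-3785459 (minus) and KLF13 chr15:31326585-31326834 (plus).
KLF2: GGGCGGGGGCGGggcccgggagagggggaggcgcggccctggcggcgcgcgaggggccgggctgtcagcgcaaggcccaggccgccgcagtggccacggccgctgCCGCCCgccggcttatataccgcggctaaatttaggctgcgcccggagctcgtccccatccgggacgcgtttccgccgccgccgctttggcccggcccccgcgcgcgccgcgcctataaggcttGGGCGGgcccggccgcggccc
KLF4: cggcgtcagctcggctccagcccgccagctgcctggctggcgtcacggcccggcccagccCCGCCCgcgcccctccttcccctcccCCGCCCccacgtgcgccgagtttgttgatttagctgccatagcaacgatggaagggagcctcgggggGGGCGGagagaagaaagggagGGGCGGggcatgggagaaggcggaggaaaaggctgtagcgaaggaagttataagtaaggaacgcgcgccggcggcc
KLF5: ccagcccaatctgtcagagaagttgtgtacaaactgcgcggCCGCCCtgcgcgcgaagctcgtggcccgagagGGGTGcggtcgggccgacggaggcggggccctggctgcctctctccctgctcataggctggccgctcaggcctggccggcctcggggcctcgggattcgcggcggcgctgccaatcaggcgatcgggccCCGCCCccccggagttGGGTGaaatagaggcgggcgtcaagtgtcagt
KLF6: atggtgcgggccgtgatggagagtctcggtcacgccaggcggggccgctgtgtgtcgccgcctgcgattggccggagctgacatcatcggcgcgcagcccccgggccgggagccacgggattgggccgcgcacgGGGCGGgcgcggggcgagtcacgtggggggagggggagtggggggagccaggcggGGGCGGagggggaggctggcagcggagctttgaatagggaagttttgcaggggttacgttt
KLF13: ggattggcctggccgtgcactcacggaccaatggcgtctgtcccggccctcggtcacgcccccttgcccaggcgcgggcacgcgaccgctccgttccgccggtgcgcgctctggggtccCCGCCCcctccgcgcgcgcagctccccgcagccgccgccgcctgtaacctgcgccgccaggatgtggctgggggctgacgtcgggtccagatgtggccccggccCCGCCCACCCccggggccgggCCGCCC
In these bases KLF2 and KLF4 held 4 GC boxes each, KLF13 held 3, and KLF5 and KLF6 held 2 each. CACCC boxes numbered 2 in KLF5 and 1 in KLF13, where the box shares 1 base with a GC box. At KLF4 and KLF5 a peak lay on these windows in DMSO alone, and at KLF2, KLF6 and KLF13 in both lists.

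At gene ends, 6 of the 10 genes had an inflachromene peak and 6 had a DMSO peak, against 38.2% and 45.8% of all protein-coding genes. KLF2, KLF6, KLF10, KLF11 and KLF13 had one in both lists (5 of 10, against 36.6% of genes). KLF16 had one in inflachromene alone (1 of 10, against 1.59%) and KLF4 in DMSO alone (1 of 10, against 9.26%). KLF3, KLF5 and KLF9 had none at either end (3 of 10, against 52.6%). With 10 genes, these counts describe the members and are no measure of the family against other genes. The span ends are not the whole account of the starts, since KLF5 and KLF16 each had a peak beside a RefSeq start that lies inside the span. Counting summits within 1000 bp of any RefSeq start, which the reference lists for 8 of the 10 genes, 5 of the 8 had an inflachromene peak and 7 of the 8 a DMSO peak, against 42.1% and 50.2% of 15812 genes with a listed start. By that count KLF16 had a peak in both lists, KLF4 and KLF5 in DMSO alone, and KLF9 in neither.

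**Figure D1:**
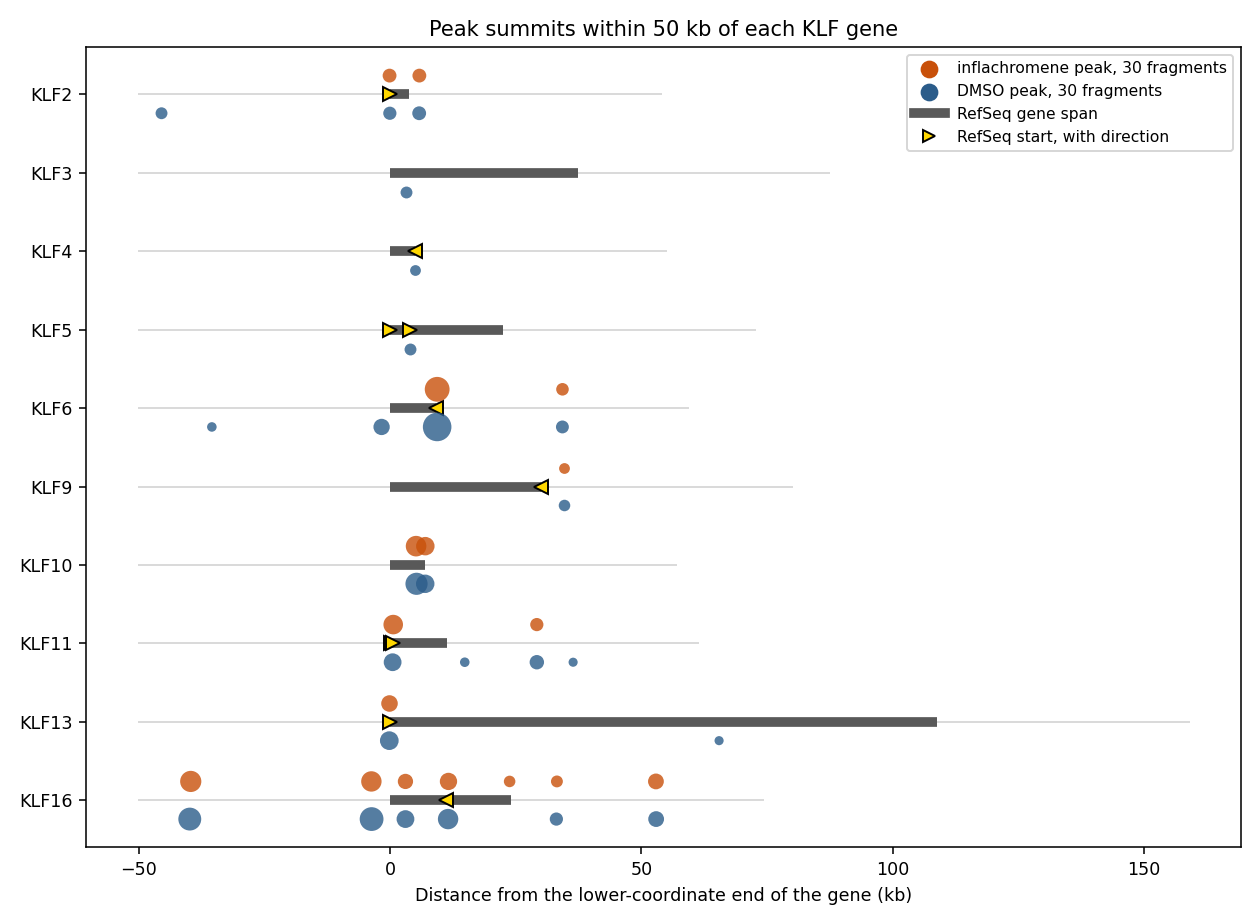
Peak summits within 50 kb of each KLF gene, by distance in kb from the gene's lower-coordinate end. Orange circles above each gene are inflachromene peaks and blue circles below are DMSO peaks, with areas proportional to the fragments at the summit; grey bars are RefSeq spans and gold triangles RefSeq starts. KLF3, KLF4 and KLF5 have a DMSO circle and no inflachromene circle, and KLF16 has 7 inflachromene and 6 DMSO circles.

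Among the activators, KLF6, a growth-inhibitory factor that is induced early by serum, carried the most fragments of any peak near the 10 genes. Its peak on chromosome 10 (3785099 to 3785568 in inflachromene, 3785180 to 3785638 in DMSO) held 74 fragments at the summit in inflachromene (exact Poisson 95% interval 58.1 to 92.9) and 98 in DMSO (79.6 to 119.4). The summits lay 174 and 169 bp before the gene's start. The inflachromene value stood at percentile 97.5 of inflachromene peaks at ends of protein-coding genes, and the DMSO value at percentile 98.5 of DMSO peaks there. The ratio of inflachromene to DMSO was 0.755, with an exact conditional binomial interval of 0.55 to 1.03 that includes equal counts. These intervals and those below cover counting error only, since reads without molecular identifiers are not independent molecules.

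Around KLF6 the inflachromene list held 1 further position and the DMSO list 3, the shared one included. A peak 25095 bp before the start in inflachromene and 25081 bp before it in DMSO, outside any annotated gene, had 19 and 20 fragments. A second, 1666 bp beyond the 3′ end of the gene on chromosome 10 (3774265 to 3774454), was called in DMSO alone with 32 fragments (21.9 to 45.2), the strongest of all DMSO positions near the 10 genes without an inflachromene peak. The local background there was high, and about 26 fragments would have been needed for a call in inflachromene, so up to 25 could have gone uncalled. A weak DMSO peak of 11 fragments, 35424 bp from the gene and inside the non-coding gene LOC105376360, was also without a counterpart.

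KLF2, a factor known for quiescence of endothelial cells and T cells, had nearly equal values in both lists. On chromosome 19 (16324594 to 16324808 in inflachromene) the summit 83 bp before the start held 23 fragments in inflachromene (14.6 to 34.5), against 21 in DMSO (13.0 to 32.1) at a summit 26 bp before it. The ratio was 1.10 (0.58 to 2.08). The position is also an end of KLF2-DT, the divergent non-coding gene, and the peak cannot be credited to either. A second peak, 1987 bp beyond the 3′ end by the inflachromene summit and 1950 bp by the DMSO summit, had 23 fragments in each list. The remaining one, 45434 bp before the start, was called in DMSO alone with 17 fragments (9.90 to 27.2). About 9 would have sufficed for a call in inflachromene, so up to 8 could have gone uncalled. That is a ratio of 0.471 with an interval of 0.176 to 1.15, which includes equal counts.

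KLF4, a factor of epithelial differentiation and of reprogramming to pluripotency, had no inflachromene peak within 50 kb. Its DMSO peak on chromosome 9 (107489674 to 107489972) held 14 fragments (7.65 to 23.5) at a summit 31 bp after the start, at percentile 9.34 of DMSO peaks at gene ends. About 11 fragments would have been needed for a call in inflachromene, so up to 10 could have gone uncalled, and 10 against 14 is a ratio of 0.714 with an interval of 0.284 to 1.73. Loss of the call at KLF4 is therefore not distinguishable at this depth from an unchanged signal.

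KLF5, a proliferation-associated factor of gastrointestinal epithelium, also had a peak in DMSO alone. It lay on chromosome 13 (73058896 to 73059064), 4004 bp inside the span and 25 bp before the gene's downstream RefSeq start, on the sequence shown above, and held 17 fragments (9.90 to 27.2) at a fold enrichment of 9.18. Its surroundings were poor in fragments, and about 8 at the summit would have sufficed for a call in inflachromene. By this limit, set at a background scaled from DMSO, the inflachromene summit held at most about 7, apart from the caller's minimum peak width. That is a ratio of at most 0.412, whose counting interval ran from 0.144 to 1.04. The interval does not allow for the position being taken because it was called in DMSO alone. Of the DMSO positions without an inflachromene peak near the 10 genes this bound was the lowest, and its interval still included equal counts. The upstream start of KLF5 had no peak in either list.

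The repressor gene KLF3 had no inflachromene peak within 50 kb and no peak at its ends. A DMSO peak on chromosome 4 (38667192 to 38667410) lay 3120 bp inside the span and held 17 fragments (9.90 to 27.2). About 12 would have been needed for a call in inflachromene, so up to 11 could have gone uncalled. That is a ratio of 0.647 with an interval of 0.274 to 1.46, which includes equal counts. The reference tables used here list no start for KLF3.

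Of the genes whose proteins recruit SIN3A, KLF10, an early target of TGF-beta, had a pair of peaks. At its end on chromosome 8 (102655585 to 102655907 in inflachromene, 102655645 to 102656242 in DMSO) the summit held 41 fragments in inflachromene and 41 in DMSO (29.4 to 55.6 for each), a ratio of 1.00 (0.63 to 1.58). That peak also lay at an end of the non-coding gene LOC101927245. Inside the gene, 1750 bp from that end by the inflachromene summit and 1661 bp by the DMSO summit, the peak was stronger, with 51 fragments in inflachromene (38.0 to 67.1) and 59 in DMSO (44.9 to 76.1).

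KLF11, also an early target of TGF-beta, had the highest ratio among the shared end peaks of the 10 genes. On chromosome 2 (10043882 to 10044445 in inflachromene, 10043888 to 10044347 in DMSO) its summit held 46 fragments in inflachromene (33.7 to 61.4) and 38 in DMSO (26.9 to 52.2). The ratio of 1.21 (0.77 to 1.91) stood at percentile 94.0 of shared peaks at ends of protein-coding genes, and its interval included equal counts. The inflachromene summit lay 24 bp before the downstream of the gene's 2 RefSeq starts and the DMSO summit 145 bp before it, a shift of 121 bp against a median of 36 bp for shared peaks at gene ends. The position was also an end of the non-coding gene KLF11-DT. Of 3 further DMSO positions, all within the neighbouring gene CYS1, the one 17921 bp from KLF11 was shared, with 21 fragments in inflachromene and 25 in DMSO. The others had 11 and 10 fragments in DMSO, and each would have needed about 10 for a call in inflachromene.

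KLF13, a factor first studied in T cells, had its peak on chromosome 15 (31326391 to 31326806 in inflachromene, 31326425 to 31326839 in DMSO). The summit held 33 fragments in inflachromene (22.7 to 46.3) and 42 in DMSO (30.3 to 56.8), 196 and 134 bp before the start. The ratio was 0.786 (0.48 to 1.27), near the median of 0.824 for shared peaks at gene ends, and its interval included equal counts. A weak DMSO peak of 10 fragments lay 43375 bp from the nearest end inside the gene, beside an end of the non-coding gene LOC105370939, where about 10 would have been needed for a call in inflachromene.

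KLF16 lies in a stretch of chromosome 19 dense in genes and had the most peaks within 50 kb of the 10, with 7 in inflachromene and 6 in DMSO. At least 7 inflachromene peaks were found near 2.12% of protein-coding genes, and at least 6 DMSO peaks near 7.70%. Beside its listed start (1863699 to 1864237 in inflachromene, 1863654 to 1864311 in DMSO), the summit held 36 fragments in inflachromene (25.2 to 49.8) and 50 in DMSO (37.1 to 65.9), 456 and 380 bp before the start. The ratio of 0.72 (0.46 to 1.13) was the lowest of the 16 shared positions near the 10 genes. A second position inside the gene (1855350 to 1855604 in inflachromene) had 28 fragments in inflachromene and 38 in DMSO.

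The peak at the outer end of the KLF16 span (1876074 to 1876366) was the single position near the 10 genes called in inflachromene alone. It held 16 fragments (9.15 to 26.0) and lay 12615 bp before the listed start and at an end of ABHD17A, so it cannot be credited to KLF16. About 11 fragments would have been needed for a call in DMSO. The other 4 shared positions around KLF16 lay at ends of other genes. They had 54 fragments in inflachromene and 63 in DMSO at ATP8B3, 50 and 68 at REXO1, 17 and 21 at ABHD17A, and 30 and 30 at SCAMP4 and ADAT3.

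KLF9, a factor induced by thyroid and glucocorticoid hormones, had no peak at its ends. A weak shared peak lay upstream on chromosome 9 (70419010 to 70419236 in inflachromene, 70419129 to 70419369 in DMSO), 4474 bp before the start by the inflachromene summit and 4566 bp by the DMSO summit, inside the divergent non-coding gene KLF9-DT. It held 14 fragments in inflachromene (7.65 to 23.5) and 16 in DMSO (9.15 to 26.0).

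**Figure D2:**
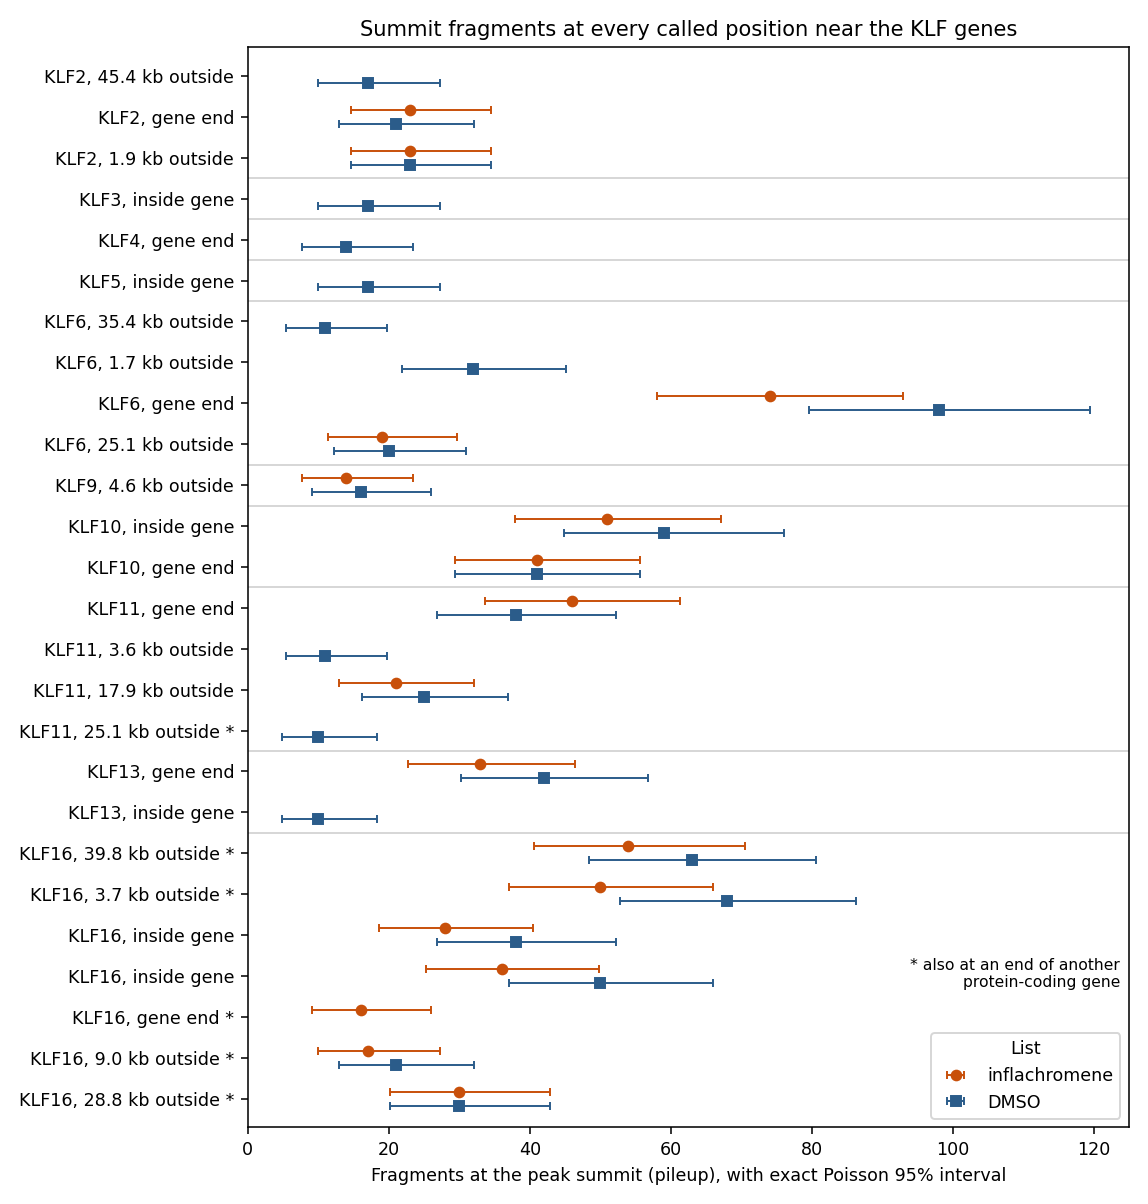
Fragments at the summit (pileup) of each of the 26 positions called within 50 kb of the KLF genes, in inflachromene (orange circles) and DMSO (blue squares), with exact Poisson 95% intervals. A missing symbol means that no peak was called in that list, not that no fragments were there. KLF6 has the highest values, 74 in inflachromene and 98 in DMSO, and the intervals of the lists overlap at all 16 shared positions.

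Across all 10 genes, 17 inflachromene peaks and 25 DMSO peaks had a summit within 50 kb, at 26 positions. Of the inflachromene peaks, 16 of 17 (94.1%, Clopper-Pearson 95% interval 71.3 to 99.9) overlapped a DMSO peak, against 90.4% of all inflachromene peaks. Of the DMSO peaks, 16 of 25 (64.0%, 42.5 to 82.0) overlapped an inflachromene peak, against 64.5% of all DMSO peaks, so the share at the KLF genes was near that of the whole list. KLF16 gave 6 of these 16, and without it the share was 10 of 19 (52.6%, 28.9 to 75.6). By place, 5 of 6 DMSO peaks at the ends of KLF genes had an inflachromene peak (against 76.3% of DMSO peaks at gene ends), 3 of 6 inside the genes (against 51.6% of those inside genes) and 8 of 13 outside them. Of the 13, 5 lay at ends of other protein-coding genes, and of the other 8, 4 had one (against 50.5% of DMSO peaks between genes within 50 kb of one), although 2 of these 8 lay inside CYS1. Without positions at ends of other protein-coding genes the share near all members was 12 of 20 (60%, 36.1 to 80.9). A median of 1.5 inflachromene and 2 DMSO peaks lay near a member, against 1 and 2 near a protein-coding gene.

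Whether a DMSO position near a KLF gene had an inflachromene peak went with its strength. Of 9 DMSO positions with 17 or fewer fragments, 1 (KLF9) had an inflachromene peak, against 29.1% of all DMSO peaks of that strength. Of 9 with 18 to 40 fragments, 8 had one, against 71.8%, the exception being the position beyond the 3′ end of KLF6. All 7 with 41 or more fragments had one, against 98.4%. The −log10 q, which also takes in the local background, set the DMSO peaks at KLF3, KLF4 and KLF5 apart from each other, in a comparison added after their values were seen. It was 6.84 at KLF3 and 5.33 at KLF4, and of all DMSO peaks within 1 unit of these values 27.3% and 19.1% had an inflachromene peak. At KLF5 it was 13.2, and of DMSO peaks within 1 unit of that 62.7% had one. The KLF5 peak was thus weak by its fragments and not by its −log10 q. The same held for the distal KLF2 position called in DMSO alone, with 17 fragments and a −log10 q of 11.0. Of DMSO peaks within 1 unit of that, 49.9% had an inflachromene peak. The DMSO-alone positions of 10 or 11 fragments near KLF6, KLF11 and KLF13 had values of 3.42 to 5.22. The position beyond the 3′ end of KLF6, with 32 fragments, had a −log10 q of 5.66.

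The summit ratios of the 5 shared end peaks spread around equality. Of these, 2 had fewer fragments in inflachromene (KLF6 and KLF13), against 76.8% of all shared peaks at gene ends, KLF10 had equal numbers, and KLF2 and KLF11 had more. Their median ratio was 1.00, against 0.824 over 6281 shared peaks at gene ends. Their summed fragments, 217 in inflachromene and 240 in DMSO, gave a ratio of 0.904 (0.75 to 1.09), whose interval includes both of these medians. The KLF16 peak beside its listed start, with 36 fragments in inflachromene and 50 in DMSO, is not among them. Its ratio was 0.72, and since it lies inside the span it is counted away from the ends. The contrast between the groups thus depends on the use of span ends. At the 11 shared positions away from the ends of the KLF genes, 9 had fewer fragments in inflachromene and 2 had equal numbers, with a median ratio of 0.857 (range 0.72 to 1.00) and sums of 343 fragments in inflachromene and 413 in DMSO. Of these, 4 lay at ends of other protein-coding genes. At the remaining 7, 6 had fewer fragments in inflachromene and 1 had equal numbers, against 70.9% lower among all shared peaks away from gene ends. Their median ratio was 0.864, against 0.846, and their summed fragments, 192 in inflachromene and 231 in DMSO, gave a ratio of 0.831 (0.68 to 1.01).

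The caller's local background gave a second count at each position, the number of fragments in the 10 kb around the summit, which includes the peak itself. By this count KLF6 stood out, with 503 fragments in inflachromene (460 to 549) and 681 in DMSO (631 to 734). Such high values were found at 1.17% of inflachromene and 0.862% of DMSO peaks at gene ends. KLF10 followed, with 353 fragments in inflachromene and 415 in DMSO around its end peak, reached by 2.76% and 2.70% of end peaks. KLF4 had 135 in DMSO, equal to the median of end peaks in that list, and KLF5 had 63, a value that 95.4% of end peaks reached. The 10 kb around the KLF6 and KLF10 end peaks was thus rich in fragments, which also lowers their fold enrichment. These counts do not separate the peaks from their surroundings, and at KLF10 the window takes in the other peak inside the gene.

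In the 10 kb around the summit, fragments were fewer in inflachromene at 16 of 16 shared positions near the KLF genes, against 83.7% of all shared peaks. Some of these windows overlap, as at KLF10 and KLF2. The median ratio was 0.840, against 0.872 over all shared peaks. For the 11 positions with a mean of at least 200 fragments in their window the median was 0.842, against 0.838 over 2163 such shared peaks, of which 94.5% were lower. For the 5 positions under 200 it was 0.838, against 0.884 over 7585 such peaks, of which 80.7% were lower. The lowest ratio was 0.688 (0.57 to 0.82) at the start of KLF16, with 213 fragments in inflachromene and 309.5 in DMSO, at percentile 2.80 of those 2163 peaks. KLF6 had a ratio of 0.739 (0.66 to 0.83), at percentile 11.5, and KLF11, with 214.5 in inflachromene and 215.5 in DMSO, a ratio of 0.995 (0.82 to 1.20), at percentile 93.9.

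Among the shared end peaks, the summit and its surroundings differed most at KLF2, KLF10 and KLF11, the 3 genes whose end peaks had at least as many summit fragments in inflachromene. Mean fragment length also differed, 165.7 bp in inflachromene and 152.4 bp in DMSO. Longer fragments raise every summit count but not the 10 kb count. This holds for all peaks alike, and its share in the gap at these genes was not tested. At KLF6 the ratio was 0.755 at the summit and 0.739 around it, and at KLF13 0.786 and 0.807. At KLF2 the ratio was 1.10 at the summit and 0.799 (0.66 to 0.97) in the surrounding 10 kb, with 192.5 fragments in inflachromene and 241 in DMSO. At KLF10 it was 1.00 at the summit and 0.851 (0.74 to 0.98) around it. Fold enrichment is (pileup + 1)/(background + 1), and its background scales with mean fragment length as well as with the 10 kb count. It was higher in inflachromene at these 3 genes: 5.73 in inflachromene and 4.71 in DMSO at KLF2, 6.13 and 5.74 at KLF10, and 10.3 and 9.11 at KLF11. It was lower in inflachromene at KLF6 (8.03 in inflachromene and 8.70 in DMSO) and KLF13 (10.2 and 11.8).

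**Figure D3:**
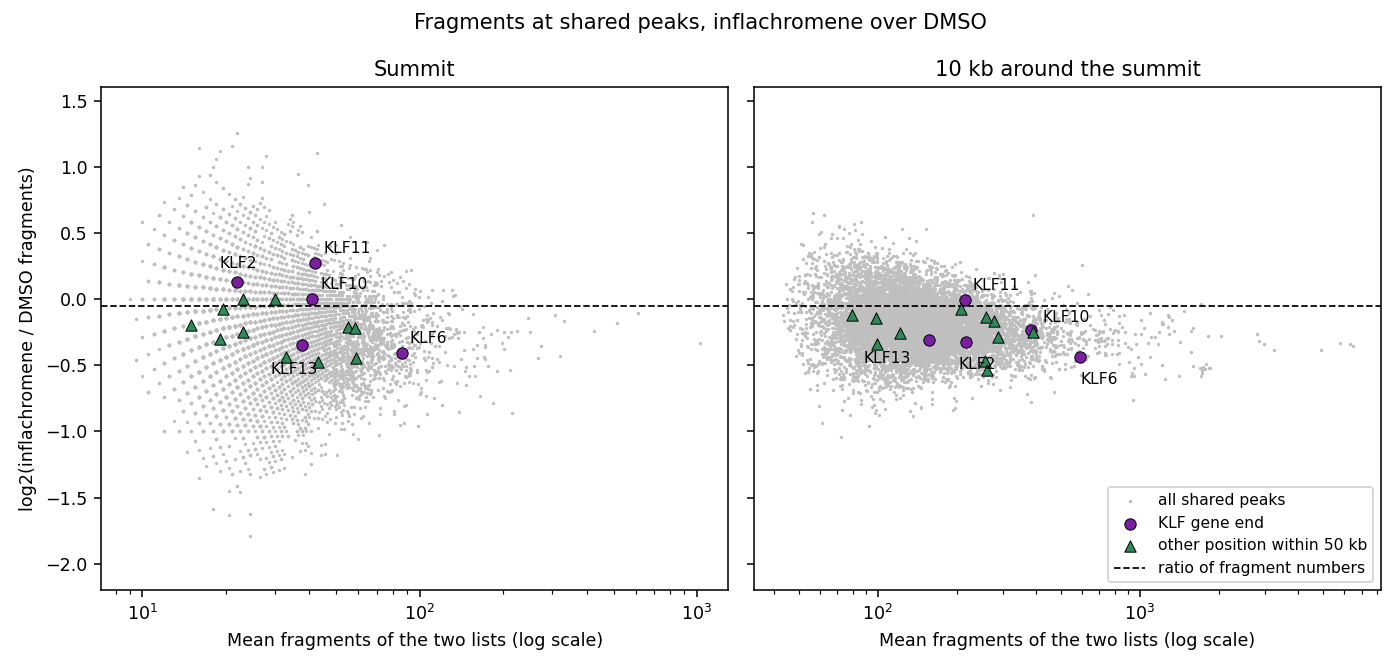
Log2 ratio of inflachromene to DMSO fragments against the mean of the 2 lists (log axis), at the summit (left) and in the 10 kb around it (right). Grey dots are 9748 shared peaks, purple circles the shared end peaks of KLF2, KLF6, KLF10, KLF11 and KLF13, green triangles the 11 other shared positions within 50 kb, and the dashed line the ratio of fragment numbers, 0.964. The line does not allow for the longer inflachromene fragments, which raise the summit counts. The end peaks of KLF2, KLF10 and KLF11 lie at or above 0 at the summit, and all 16 member symbols lie below 0 in the 10 kb counts.

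The starts of the KLF genes differed in base composition, and the 2 low in GC had no summit within 1000 bp. RefSeq lists 10 starts for 8 of the genes, and a window from 250 bases before to 50 after each was compared with 35114 such windows. In 8 of the 10 windows GC content was 65% or more, against 11627 of the 34959 windows for which nearby peaks were counted. Over these 8 windows it ran from 69.0% at KLF4 to 86.0% at KLF16, against a median of 58.7% over all windows. Of these 8, 6 had an inflachromene summit within 1000 bp of the start and 8 a DMSO summit, against 49% and 59.4% of the 11627 windows of 65% GC or more. The exceptions in inflachromene were KLF4 and the downstream start of KLF5, and both starts of KLF11 share a peak. The other two windows, at KLF9 and at the upstream start of KLF5, had 32.7% and 40.7% GC and no summit in either list. Among 5190 windows under 42% GC, 1.87% had an inflachromene summit and 2.49% a DMSO summit that near. The limits of 42% and 65% were not among the planned comparisons, and no member window lay between them.

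The GC box GGGCGG was found in 8 of the 10 windows, the same 8 that were rich in GC, against 45.0% of all windows. The KLF16 window held 7 GC boxes, as did that of the downstream start of KLF11. The CACCC box was found in 4 windows, at both starts of KLF5, at the downstream start of KLF11 and at KLF13, against 59.9%. CCAAT was found in 4 windows (KLF5 downstream, KLF6, KLF9 and KLF13), against 34.6%, and the E-box CACGTG in 3 (KLF4, KLF6 and the upstream start of KLF11), against 7.26%. The cyclic AMP response element TGACGTCA was found in 1, at the downstream start of KLF11, against 1.85%, and TATAAA in 1, at the upstream start of KLF5, against 11.5%. The AP-1 motif TGANTCA, the ETS motif CCGGAAG, the YY1 motif AAGATGGC, the palindromic NRF1 motif and the CArG box were in none of the 10 windows, against 7.71%, 10.3%, 2.89%, 1.24% and 1.29% of all windows. All motifs were searched on both strands, and a match or its absence is a description of these letters.

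Of the other 8 KLF genes, none was called at an end in both lists, against 36.6% of all protein-coding genes. KLF15 had one in inflachromene alone, with 14 fragments, and KLF14 in DMSO alone, with 9. Among the 9 SP genes, SP1, SP2 and SP4 had a peak in both lists, with 55 fragments in inflachromene and 60 in DMSO at SP1, 65 and 61 at SP2, and 55 and 64 at SP4. SP3 had one in DMSO alone, with 32 fragments, and SP5 to SP9 had none. In all, 4 of these 17 genes had an inflachromene peak and 5 a DMSO peak, so their shares lay below those of all protein-coding genes given above.

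Genes whose products act with or on KLF proteins were called at an end in both lists in 13 of 24 cases, in inflachromene alone in 1 and in neither in 10. The shares over all protein-coding genes were 36.6%, 1.59% and 52.6%. Of the corepressor genes, HDAC1 (44 fragments in inflachromene, 52 in DMSO) and HDAC2 (19 and 24) had a peak in both lists, while SIN3A, SIN3B, CTBP1 and CTBP2 had none. Of the ubiquitin ligase genes, FBXW7, which acts on KLF5 (20 in inflachromene, 38 in DMSO), WWP1 (22 and 26) and ITCH (19 and 21) had one in both, and SIAH1 had none. Of the genes of the ERK5 and MEF2 route that induces KLF2 and KLF4, MAP3K3 (57 in inflachromene, 77 in DMSO), MAPK7 (62 and 64), MAP3K2 (35 and 44) and MEF2D (41 and 65) had one in both. MEF2A had one in inflachromene alone, with 14 fragments, and MAP2K5 and MEF2C had none. Of the TGF-beta route upstream of KLF10 and KLF11, TGFBR2 (56 in inflachromene, 62 in DMSO), SMAD3 (41 and 60), SMAD2 (19 and 22) and TGFB1 (20 and 21) had one in both, and TGFBR1, SMAD4 and SMAD7 had none. In all, 14 of 24 had an inflachromene peak and 13 of 24 a DMSO peak, against the 38.2% and 45.8% of all protein-coding genes. The MAPK7, TGFB1 and TGFBR2 peaks were shared with ends of neighbouring genes (B9D1, B9D2 and LOC105377015).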

How the data were processed

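ChIPmentation was measured in 1 inflachromene and 1 DMSO sample of PANC-1 cells. MACS2 and, per the submitters' processing notes, deepTools 3.5.6 served the authors, on hg38. MACS2 version, aligner, duplicate handling and any control library are not named there. A deposited narrowPeak row gives the summit, an integer score (not used), the fold enrichment there (a ratio to local background) and its −log10 p and −log10 q. The lowest deposited −log10 q was 3.01 in inflachromene and 3.02 in DMSO.

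The lists give no read counts. The fragments at each summit were recovered as the whole number whose fold enrichment, (pileup + 1)/(background + 1), and Poisson tail match the deposited −log10 p within 0.001. This succeeded for all peaks on chromosomes 1 to 22 and X and was tested on simulated data made with the same formulas. The recovered background was a whole number of fragment ends in 10 kb for 99.4% of inflachromene and 99.2% of DMSO peaks (tolerance 0.05 ends), with mean fragment lengths of 165.7 and 152.4 bp. The remainder were at the caller's lowest background. Ends divided by 2 are given as fragments. Longer fragments raise a summit's pileup at equal fragment number. All of this was inferred from the deposited values and is not stated by the authors.

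Overlap of at least 1 bp made a peak shared, and a peak counted at a gene end by its own summit or that of its partner. Genes and starts were from RefSeq, GRCh38.p14, which has the coordinates of hg38 on these chromosomes. The fewest fragments needed for a call were computed from the lowest deposited −log10 p of the other list, at the position's background times the median ratio of 10 kb counts. Members and gene lists were chosen with earlier results of these data known. One listed marker is not reported here. Named were all members, list genes with a peak in 1 list alone, the 3 strongest of each list in DMSO and, after their values were seen, further list genes. Python 3.11.15, pandas 2.3.3, numpy 2.4.6 and scipy 1.17.1 were used.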

Additional observations from a re-analysis of the deposited data

How the results depend on the processing

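With 1 sample per treatment no replicate could be left out. No paired analysis was possible because each treatment has 1 sample. The count of members with a peak at an end was 5 or 6 in inflachromene and 4 to 7 in DMSO under windows of 500 or 2500 bp, own summits, a −log10 q of at least 5, lists of equal length, or RefSeq starts, an alternative chosen after the data were examined. The lowest DMSO count, 4, came with lists of equal length, which left out KLF2 and KLF4, and the lowest inflachromene count with a window of 500 bp, which left out KLF11, and with RefSeq starts. The share of DMSO peaks within 50 kb that had an inflachromene peak was 85.7% (12 of 14) with lists of equal length, which drop weak DMSO peaks by construction. Under the other alternatives it ran from 48.0% with a reciprocal overlap of 50% to 72.7% with a −log10 q of at least 5. The median ratio at the 5 shared end peaks was 0.807 with fragments in 10 kb, chosen after the data were examined, in place of summit fragments, and 1.00 to 1.07 otherwise. Away from ends it ran from 0.842 to 0.915. Counts of peaks within 25 or 100 kb and of other KLF and SP genes stayed within 1.5 times those reported. For calls in 1 list alone, the distance from the fewest fragments needed differed by position. The DMSO summit held 14 fragments at KLF4, where about 11 were needed in inflachromene, and 17 at KLF5, where about 8 were needed. The intervals of both bounds included equal counts, and the part of depth in these calls was not tested.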
